A study of Mus musculus with 6 samples.

Results

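Cd36, Plin4, Scd1, Acaca and G0s2 are genes by which cells take up, make and store fat, and they are described here in adipose stromal cells, the fibroblast-like progenitors of fat tissue, from both a subcutaneous and a perigonadal depot of male mice. They were picked by symbol from the authors' deposited table of the paired depot comparison, which lists only probe sets at an unadjusted p-value below 0.05. The 5 genes had 1 probe set (transcript cluster) each, out of 3181 named genes and 23531 probe sets with values. Each depot was represented by 3 pools of cells on 1 Affymetrix array each, subcutaneous pools 1 to 3 and perigonadal pools 1 to 3. The cells were not cultured and received no agent. They had been sorted magnetically from the stromal vascular fraction as negative for CD45 (leukocytes) and CD31 (endothelium) and positive for Sca1. The design text names 6 animals and independent pools, and does not say how many animals made 1 pool or whether same-numbered pools shared animals. The labels used here name neither strain nor age. The p-values below measure only spread between these pools, which may be technical. Those of the fit over all probe sets (limma) draw partly on the spread of all probe sets and not on a gene's own alone.

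CD36 is a membrane protein that helps long-chain fatty acids enter the cell. Inside, acetyl-CoA carboxylase (Acaca) makes malonyl-CoA, the building block of new fatty acids, and stearoyl-CoA desaturase (Scd1) adds a double bond to saturated chains before they are stored as triglyceride. Perilipins coat the stored droplets, perilipin 4 (Plin4) being a perilipin of adipocytes and muscle, and G0s2 inhibits adipose triglyceride lipase, the enzyme that starts triglyceride breakdown. Most of these genes are switched on as stromal progenitors become adipocytes, under the nuclear receptor PPAR-gamma with its partner RXR and, for the synthesis genes, under SREBP-1.

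The genes did not all lie on the same side. Cd36, Plin4, Scd1 and Acaca were lower and G0s2 was higher in perigonadal than in subcutaneous pools, each in 3 of 3 pool pairs. By the ratio of means, Cd36 was 3.16-fold, Plin4 3.06-fold and Scd1 1.52-fold lower, Acaca 1.20-fold lower, and G0s2 was 2.30-fold higher. As this contrast chose the genes, these values are a description and carry no test. In bulk RNA, fewer cells of a type and less RNA per cell cannot be told apart.

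The start regions of the genes that stood furthest apart, Cd36 and Plin4 on the lower and G0s2 on the higher side, are shown because the nuclear receptor and SREBP pathways named above act through promoter elements. The RefSeq promoter table of GRCm38.p6 (250 bases before to 50 after a gene's start) held 4 of the 5 genes, all but Scd1. Capitals mark matches, on either strand, to AGGTCA (the half-site of nuclear receptors), CCAAT (the box bound by NF-Y, a partner of SREBP) or GGGCGG (the GC box). The Cd36 window is chr5:17835847-17836146, that of Plin4 chr17:56109733-56110032 and that of G0s2 chr1:193273139-193273438, each on the minus strand and written 5′ to 3′ along the gene.
Cd36: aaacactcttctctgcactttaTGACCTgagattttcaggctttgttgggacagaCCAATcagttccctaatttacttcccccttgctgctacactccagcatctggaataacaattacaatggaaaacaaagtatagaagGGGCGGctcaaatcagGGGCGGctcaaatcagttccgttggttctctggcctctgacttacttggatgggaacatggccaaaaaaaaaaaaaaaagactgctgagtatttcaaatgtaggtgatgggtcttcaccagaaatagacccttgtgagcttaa
Plin4: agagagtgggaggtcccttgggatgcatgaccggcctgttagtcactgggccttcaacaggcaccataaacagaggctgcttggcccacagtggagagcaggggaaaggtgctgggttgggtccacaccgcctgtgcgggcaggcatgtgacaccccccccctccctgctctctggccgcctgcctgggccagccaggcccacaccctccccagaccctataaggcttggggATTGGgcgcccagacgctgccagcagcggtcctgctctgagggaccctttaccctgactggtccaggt
G0s2: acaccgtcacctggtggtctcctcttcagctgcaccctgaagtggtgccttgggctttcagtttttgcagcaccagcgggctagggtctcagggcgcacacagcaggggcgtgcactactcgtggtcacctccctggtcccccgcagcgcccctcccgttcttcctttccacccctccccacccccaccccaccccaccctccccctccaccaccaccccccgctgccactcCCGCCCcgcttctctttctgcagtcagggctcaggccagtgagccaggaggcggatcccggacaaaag
The Cd36 window held 1 half-site, read on the opposite strand and beginning 228 bases before the start, a CCAAT box 195 bases before it and 2 GC boxes. The Plin4 window held 1 CCAAT box on the opposite strand, 18 bases before the start, and the G0s2 window held 1 GC box on the opposite strand at the same distance. The Acaca window held none of the 3 motifs. Elements that SREBP itself binds were not searched for in any window. The full direct repeat AGGTCANAGGTCA, the form read by PPAR-gamma with RXR, was in none of the 4 windows. Among all 32851 promoters of the table, 16.3% held the half-site, 37.4% the CCAAT box, 35.7% the GC box and 0.0396% the direct repeat. These matches are letters in a short window, and the half-site, CCAAT box and GC box are common. The exact direct repeat is so rare among promoters that its absence from 4 windows carries no information on PPAR-gamma sites. Looser forms of it, and sites outside the windows, were not searched for.

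Across arrays the values were alike in scale. The median normalized intensity of an array lay between 6.44 and 6.96, and across probe sets the correlation of log2 intensities was 0.991 to 0.994 within a depot and 0.978 to 0.981 between depots. Over all probe sets, limma with Benjamini-Hochberg adjustment put 952 higher and 1286 lower in perigonadal pools, which is 9.51% of those tested. Ly6a, which encodes Sca1, the marker used for the positive sort, was at 435 to 620 in all 6 pools. It was lower in the perigonadal pool of 3 of 3 pairs (log2 difference -0.20, adjusted p = 0.231 in limma) and passed as lower only with eBayes with trend and robust, of 16 alternatives. No probe set carried the name of the genes for CD45 or CD31, so the negative sort was not checked here.

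Cd36 (transcript cluster 10528207, chromosome 5, band A3 in the authors' deposited table) had normalized intensities of 42.2, 52.5 and 59.4 in subcutaneous pools 1 to 3, and of 15.6, 13.3 and 19.9 in perigonadal pools 1 to 3. The lowest subcutaneous pool was thus above the highest perigonadal pool. The means were 51.4 ± 8.67 and 16.2 ± 3.32 (SD, n = 3 pools here and below). On the log2(intensity + 1) scale, perigonadal minus subcutaneous, the difference was -1.61 ± 0.12 (SE from limma), and 81 of the 23531 probe sets had a more negative one. By pool pair it was -1.38, -1.90 and -1.53, so pair 2, in which the perigonadal value was lowest, differed most.

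Plin4 (10451932, chromosome 17, band D) was at 12.8, 16.1 and 18.7 in subcutaneous pools and at 4.77, 6.03 and 4.77 in perigonadal pools. The perigonadal values lay below the median of their own arrays, 6.51 to 6.96, so the gene was among the dim probe sets there. The files give no detection call. The depots did not overlap, with means of 15.9 ± 2.99 and 5.19 ± 0.727. The log2 difference was -1.44 ± 0.12 (SE), with -1.25, -1.28 and -1.77 in pool pairs 1 to 3. It was -0.58 with a pseudocount of 16, since at this brightness the added constant exceeds the perigonadal signal.

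Scd1 (10467979, chromosome 19, band C3) was at 261, 269 and 297 in subcutaneous and at 164, 185 and 196 in perigonadal pools. Both sets were far above the array medians and did not overlap. The means were 276 ± 18.8 and 182 ± 16.1 and the log2 difference was -0.60 ± 0.086 (SE). The pool pairs were close together at -0.66, -0.54 and -0.60, a spread of 0.062 (SD), against 0.27 for Cd36 and 0.29 for Plin4.

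Acaca (10394538, chromosome 11, band C) was at 18.5, 19.0 and 17.9 in subcutaneous and at 15.0, 16.4 and 14.9 in perigonadal pools. The depots did not overlap here either, but the gap was small: the means were 18.5 ± 0.511 and 15.4 ± 0.845. The log2 difference was -0.25 ± 0.085 (SE), with -0.28, -0.20 and -0.26 by pool pair (SD 0.043). There were 2894 probe sets with a more negative difference, against 647 for Scd1.

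G0s2 (10361246, chromosome 1, band H6) was at 78.5, 57.2 and 72.3 in subcutaneous and at 160, 131 and 189 in perigonadal pools. Every perigonadal pool was above every subcutaneous pool. The means were 69.3 ± 10.9 and 160 ± 29.0, and the log2 difference was 1.19 ± 0.10 (SE), which 215 probe sets exceeded. By pool pair it was 1.02, 1.18 and 1.37.

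**Figure D1:**
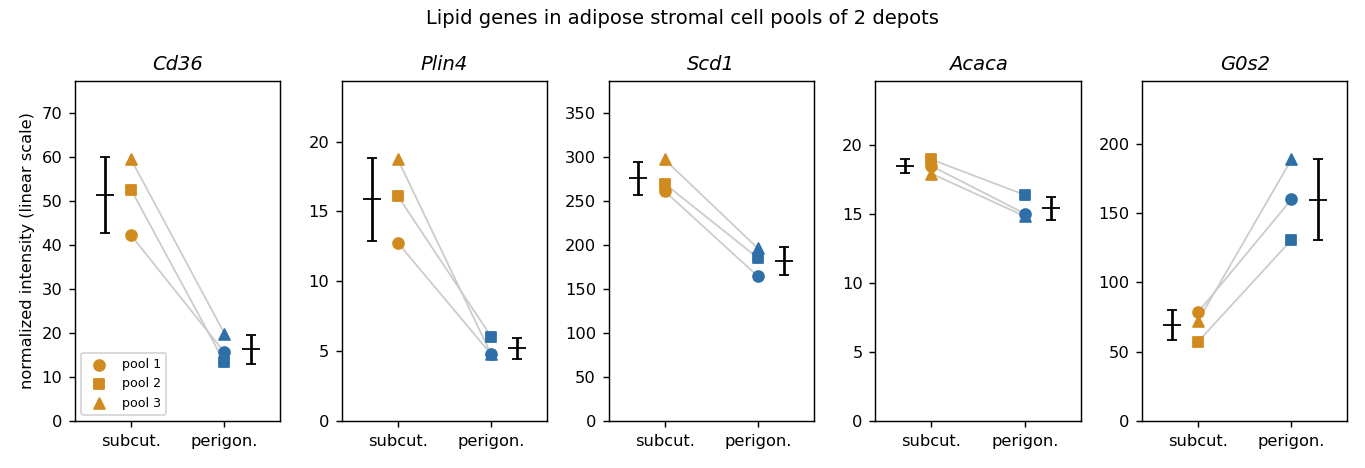
Normalized intensity (linear, each panel from 0) of the 5 genes in the 3 subcutaneous (orange) and 3 perigonadal (blue) pools, with grey lines joining pools of the same number and black bars for the mean ± SD. In each panel the 2 depots do not overlap, with perigonadal pools lower for Cd36, Plin4, Scd1 and Acaca and higher for G0s2. The genes were chosen by this contrast and the share of all probe sets without overlap was not counted, so nothing is read from it.

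The fit over all probe sets called 4 of the 5 genes at an adjusted p below 0.05, with 3 lower (Cd36, Plin4 and Scd1) and 1 higher (G0s2). Acaca was not called. Of all probe sets 5.47% were called lower and 4.05% higher, 9.51% in all, but the genes had been taken from the table of the same contrast, so nothing can be read from the difference between these shares. In the authors' deposited table, the p-values that admitted the genes were 0.00934 for Cd36, 0.0131 for Plin4, 0.00357 for Scd1, 0.0100 for Acaca and 0.00736 for G0s2. That test takes the spread of each probe set from its own 3 pool pairs, whereas limma also draws on that of all probe sets. Acaca had a signed fold of -1.20 in the authors' test. Lipid genes just outside the limit of 0.05 have no name here. Without pool pair 1, Scd1 was no longer called and its log2 difference was -0.57.

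**Figure D2:**
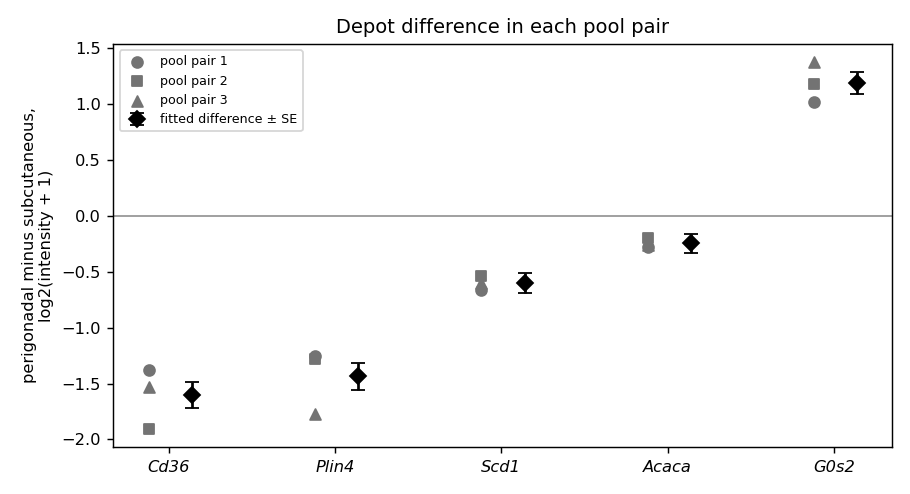
Log2(intensity + 1) difference, perigonadal minus subcutaneous, of each gene in each of the 3 pool pairs (grey) and as fitted by limma (black diamond, ± SE). All 3 pairs lie on the same side of 0 for each gene, which the paired p-value that admitted the genes requires. The pairs of Scd1 and Acaca lie closest together.

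Within a depot the genes did not share 1 order of pools. Among subcutaneous pools, Cd36, Plin4 and Scd1 were each lowest in pool 1 and highest in pool 3, while G0s2 was highest in pool 1. Among perigonadal pools, Cd36, Scd1 and G0s2 were highest in pool 3, while Plin4 and Acaca were highest in pool 2. G0s2 was lowest in pool 2 of both depots, by 0.26 and 0.27 log2 units below its depot means. These deviations rest on single arrays.

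**Figure D3:**
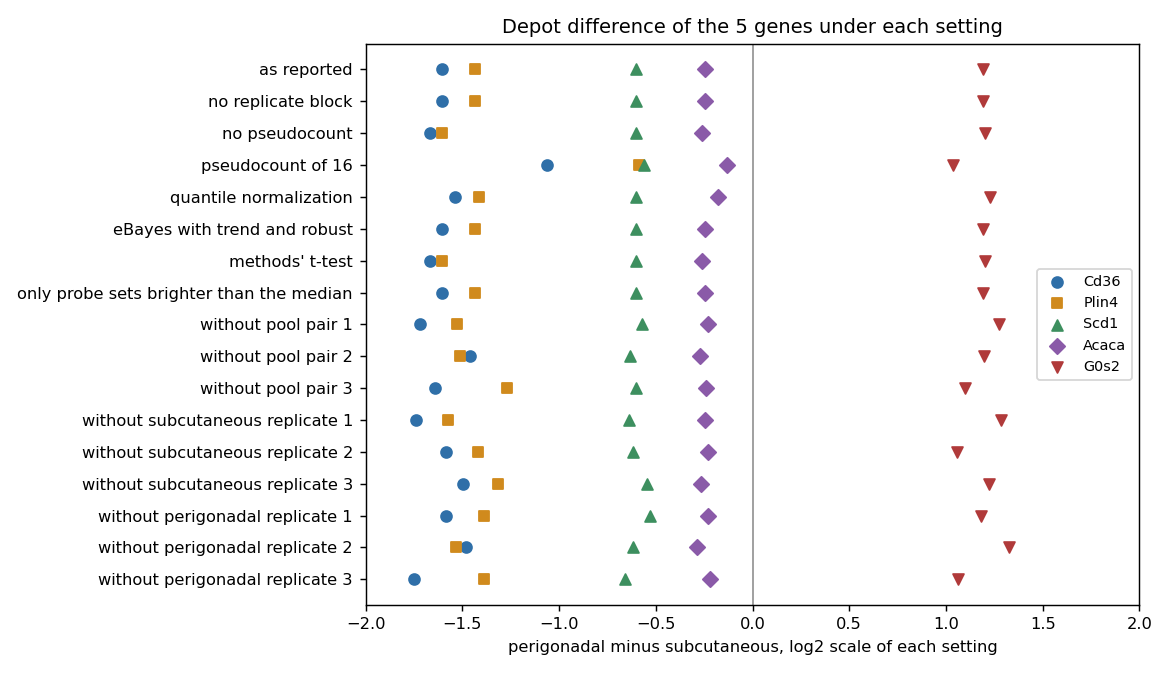
Log2 difference, perigonadal minus subcutaneous, of the 5 genes as reported and under the 16 alternative settings (rows; on each setting's own log2 scale). The sign of each gene stays the same in all rows, which the choice of the genes fixed for the rows without a pool pair. The largest shift is that of Plin4 with a pseudocount of 16.

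The genes nearest to each of the 5 in shape were found among 3180 other named genes by the root mean square distance between log2(intensity + 1) profiles over the 6 pools, each centred on its own mean. All of these profiles share the same 6 arrays, and every named gene had been admitted by the same depot contrast. The search itself selects for a like order of pools, so nothing is read from a shared order. Nearest to Cd36 were the bicarbonate transporter Slc4a4 (distance 0.12 log2 units), the interleukin 4 receptor chain Il4ra (0.13) and the growth factor Bmp7 (0.15). Slc4a4 was at 88.9, 107 and 109 in subcutaneous and 36.2, 32.2 and 39.4 in perigonadal pools, so its lowest perigonadal pool was pool 2, as for Cd36. Nearest to Plin4 were Ecscr, a cell-surface regulator described in endothelial cells (0.10), the class I gene H2-Q6 (0.11) and the fibronectin-domain gene Fndc1 (0.14). Class I genes are near-identical to each other, so the name H2-Q6 is uncertain. Nearest to Scd1 were Slain2 (0.036), Ubtd2 (0.037) and Fam168a (0.044), with log2 differences of -0.57, -0.65 and -0.65. Nearest to Acaca were the proton pump subunit Atp6v1h (0.025), the predicted gene Gm9993 (0.026) and the acetyltransferase subunit Kat14 (0.032). Nearest to G0s2 was angiotensinogen, Agt (0.084), at 97.5, 71.2 and 99.2 in subcutaneous and 191, 151 and 218 in perigonadal pools, lowest in pool 2 of both depots like G0s2. Cpxm2 (0.097) and Adap2 (0.098) followed.

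The rest of the lipid pathways was read from 8 lists, of which 198 genes are reported here and 47 had a name, the 5 genes above among them. Names were available only for genes that the authors' test had already selected in these pools, so these counts are no independent evidence. The same holds for the counts of each list below, and nothing particular to a list is read from them. Of the 47, 11 rose and 16 fell in perigonadal pools at a limma adjusted p below 0.05, and 20 did not pass. Leaving out the 5 genes above, 10 of 42 rose and 13 fell, 54.8% in all, against 52.3% of all named genes (20.9% higher and 31.4% lower), so the share called was near the background. Their median log2 difference was -0.19, against -0.17 over named genes and -0.010 over all probe sets. Without pool pair 1, 6 of the 47 rose and 8 fell. Without pool pair 2, 7 rose, and without subcutaneous pool 3 alone, 10 fell.

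**Figure D4:**
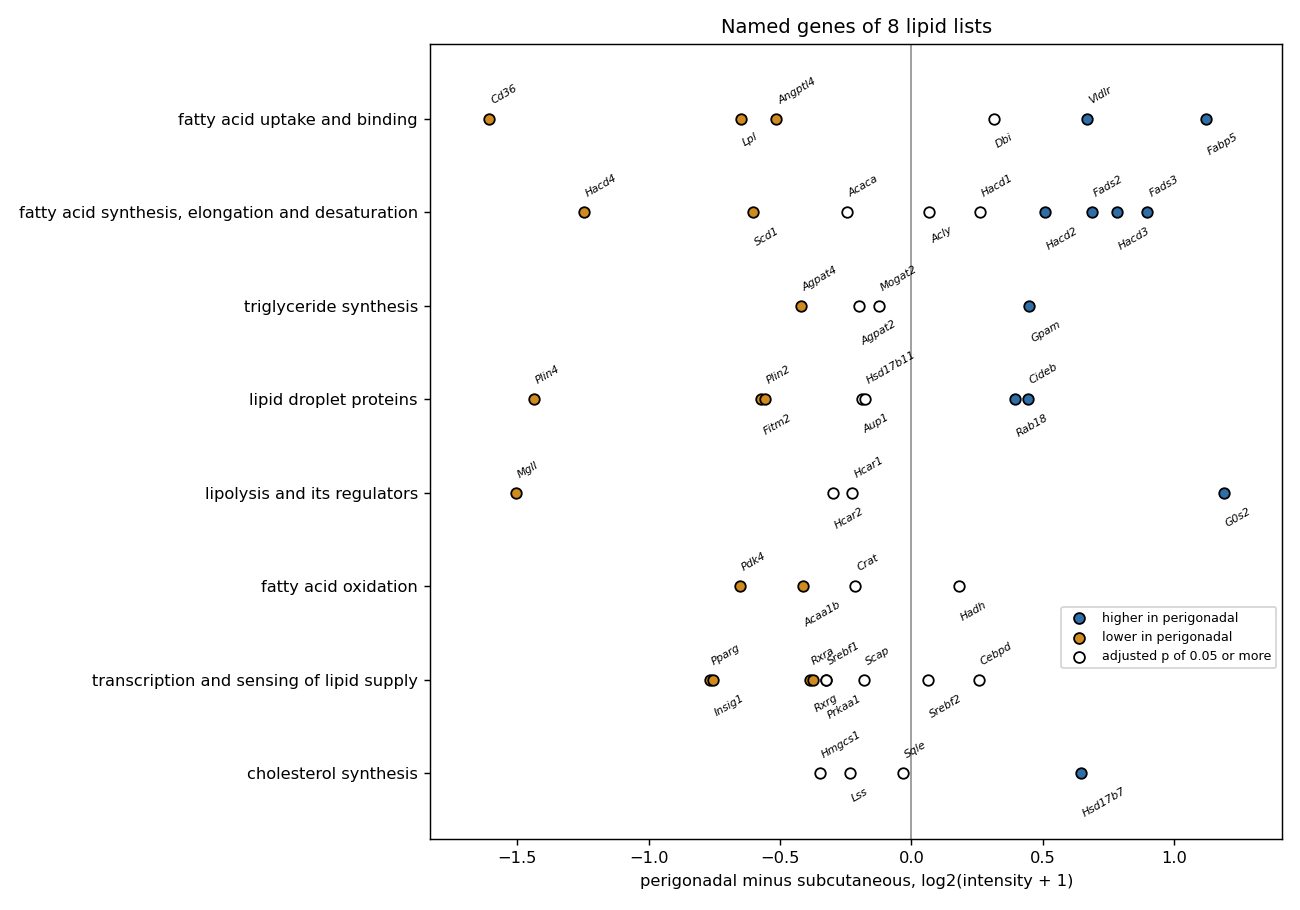
Log2(intensity + 1) difference, perigonadal minus subcutaneous, of the 47 named genes of 8 lipid lists (brightest probe set of a gene), coloured where limma's adjusted p was below 0.05. Each of the 8 lists holds genes on both sides of 0, and the lists on oxidation (as reported here) and on transcription and sensing show no gene called higher.

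Uptake genes went both ways. Of 6 named genes of 30 listed, 3 fell and 2 rose (83.3% called against 52.3% of all named genes, median log2 difference -0.10). Beside Cd36, lipoprotein lipase (Lpl), which frees fatty acids from circulating triglyceride, fell from 631 ± 35.3 to 402 ± 25.3 (log2 difference -0.65, adjusted p = 0.006). Its inhibitor Angptl4 fell from 176 ± 23.0 to 123 ± 15.9 (-0.51, adjusted p = 0.00886). In contrast the fatty acid binding protein Fabp5 rose from 18.9 ± 2.93 to 42.7 ± 9.54 (1.12, adjusted p = 0.00353), and the lipoprotein receptor Vldlr from 89.4 ± 9.69 to 142 ± 5.67 (0.67, adjusted p = 0.00764). A further probe set with the name Fabp5 was higher by log2 1.25. Which of them also reads a related copy is not known. The acyl-CoA binding protein Dbi was at 442 ± 7.09 and 551 ± 25.9 and did not pass (adjusted p = 0.0671), but passed as higher with no replicate block, with a pseudocount of 16 and with eBayes with trend and robust. The call of Angptl4 was lost without pool pair 1 (-0.51) and in 4 of 6 fits without 1 array, which had no replicate block (-0.62 to -0.41 over the 6).

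In fatty acid synthesis, 9 of 29 listed genes had a name, of which 4 rose and 2 fell (median 0.26). The share called was 66.7%, against 52.3% of all named genes. Fads2, which starts the making of long polyunsaturated chains, went from 65.8 ± 11.0 to 105 ± 4.42 (0.69), and its relative Fads3 was at 21.9 ± 2.42 and 41.6 ± 3.42 (0.90). The dehydratases of chain elongation Hacd3 and Hacd2 rose by 0.78 and 0.51 on the log2 scale. A further, dimmer probe set with the name Hacd2 was higher by log2 0.58 (adjusted p = 0.00504 in limma). The lost calls of Hacd2 given here are those of the brighter probe set. Their relative Hacd4 fell from 23.2 ± 2.90 to 9.15 ± 0.636 (-1.25, adjusted p = 0.00062). Acly, which makes the cytosolic acetyl-CoA that Acaca uses, was at 56.1 ± 3.02 and 58.9 ± 3.56 and overlapped between depots (adjusted p = 0.73). Hacd1 did not pass either (0.26, adjusted p = 0.121). Beside Scd1, the calls of Fads2 (0.65) and Hacd2 (0.60) were lost without pool pair 1, and that of Hacd2 also without pair 2 (0.52).

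Of 7 named droplet genes of 20 listed, 3 fell and 2 rose (71.4% called against 52.3% of named genes, median -0.19). Beside Plin4, the perilipin found on droplets of most cells, Plin2, fell from 196 ± 3.89 to 133 ± 10.3 (-0.56, adjusted p = 0.0076). Fitm2, which helps droplets form at the endoplasmic reticulum, fell from 18.0 ± 0.64 to 11.8 ± 0.251 (-0.57, adjusted p = 0.0056). The fold of Plin4 was larger, 3.06 against 1.47 for Plin2 by the ratio of means, although that difference between genes was not tested. The droplet GTPase Rab18 rose from 49.6 ± 5.36 to 65.4 ± 5.38 (0.39) and Cideb, a droplet protein of liver, from 5.57 ± 0.605 to 7.92 ± 0.341 (0.44). Cideb was dim, its subcutaneous values lying below the medians of their own arrays. Aup1 and Hsd17b11 had log2 differences of -0.19 and -0.18 and did not pass. Without pool pair 1 the calls of Plin2 (-0.55), Fitm2 (-0.56), Rab18 (0.37) and Cideb (0.38) were lost. Without pair 2 those of Plin2 (-0.52), Rab18 (0.45) and Cideb (0.52) were lost, and Rab18 was also lost without pair 3 (0.37) and in all 6 fits without 1 array (0.31 to 0.46), and Cideb in 2 of them.

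In the lipolysis list the 2 called genes lay on opposite sides. Of 4 named genes of 21 listed, 1 fell and 1 rose (50% called against 52.3% of all named genes, median -0.26). Monoacylglycerol lipase (Mgll), which completes triglyceride breakdown by splitting the last fatty acid from glycerol, fell from 71.4 ± 5.93 to 24.9 ± 6.27 (-1.51 ± 0.16 SE, adjusted p = 0.00132). Its pools were at 75.2, 74.4 and 64.6 in subcutaneous and 19.8, 23.0 and 31.9 in perigonadal fat. These did not overlap. G0s2, the inhibitor of the first step, was the gene called higher. The antilipolytic receptors Hcar1 and Hcar2 were dim, at 2.87 to 5.08 over the 6 pools, and did not pass. Of 4 named genes of triglyceride synthesis of 20 listed, 50% were called (median -0.16). The acyltransferase Gpam rose by 0.45 on the log2 scale and Agpat4 had a log2 difference of -0.42, while Agpat2 and Mogat2 did not pass. The calls of Gpam (0.47 and 0.39) and Agpat4 (-0.35 and -0.47) were both lost without pool pair 1 or 2, and in 5 and 4 of 6 fits without 1 array (0.32 to 0.55 and -0.48 to -0.36).

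Of fatty acid oxidation, 4 named genes of 30 listed are reported here, of which 2 fell and 2 did not pass (median -0.31). The share called was 50%, against 52.3% of all named genes. Pdk4, which turns cells from glucose to fatty acid oxidation, fell from 37.4 ± 7.88 to 23.3 ± 3.40 (-0.65), and the peroxisomal thiolase Acaa1b from 7.97 ± 0.0854 to 5.75 ± 0.436 (-0.41). Crat and Hadh had log2 differences of -0.21 and 0.18. The call of Acaa1b was lost without pool pair 1 (-0.46), 2 (-0.43) or 3 (-0.35) and in 2 of 6 fits without 1 array. That of Pdk4 was lost in 3 of the fits without 1 array (-0.75 to -0.49 over the 6).

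Of 9 named regulators of 28 listed, 4 fell and none rose (median -0.33). The share called was 44.4%, against 52.3% of all named genes (31.4% lower and 20.9% higher), and nothing particular to the list is read from these counts. Pparg, which encodes the adipogenic receptor PPAR-gamma, fell from 37.0 ± 4.02 to 21.5 ± 4.01 (-0.77, adjusted p = 0.00215), with 38.0, 32.5 and 40.4 in subcutaneous and 23.4, 16.9 and 24.2 in perigonadal pools. Its partners Rxra (30.2 ± 1.70 against 22.9 ± 0.194, log2 difference -0.39) and Rxrg (3.79 ± 0.392 against 2.70 ± 0.291, -0.37) also fell. Rxrg was dim, at 2.37 to 4.24 over the pools, below the median of every array. Insig1, which holds SREBP in the endoplasmic reticulum, fell from 162 ± 2.68 to 95.7 ± 4.79 (-0.75, adjusted p = 0.00179). Srebf1, which encodes SREBP-1, was at 28.3 ± 1.86 and 22.4 ± 2.49 and did not pass (-0.33, adjusted p = 0.0668), nor did Prkaa1, Cebpd and 2 others. A link between these regulators and the 5 genes was not tested. The calls of Rxra (-0.44, -0.38 and -0.35) and Rxrg (-0.45, -0.33 and -0.35) were lost without any of the 3 pool pairs. They were also lost in 3 and 6 of the fits without 1 array (-0.43 to -0.35 and -0.42 to -0.31), and with a pseudocount of 16 Srebf1 and Prkaa1 passed as lower. Cebpd passed as higher with a pseudocount of 16 and with eBayes with trend and robust. Of 4 named genes of cholesterol synthesis of 20 listed, 25% were called (median -0.13). Hsd17b7 rose from 16.2 ± 0.80 to 25.9 ± 2.40 (0.65, adjusted p = 0.00349), and Hmgcs1, Lss and Sqle did not pass.

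Other cells that a stromal sort can hold also use these genes: endothelium and macrophages take up fat through CD36, and mature adipocytes are rich in all 5 products. None of 16 markers of mature adipocytes had a name, so their levels were not analysed here. Of 17 endothelial markers, the 2 named ones split. Tek fell from 130 ± 8.99 to 76.5 ± 2.94 (-0.76) and Eng, also a stromal marker, rose from 40.3 ± 3.03 to 59.1 ± 4.41 (0.54). Their summed intensity was 162 to 176 in subcutaneous and 134 to 137 in perigonadal pools. Of 20 macrophage and other leukocyte markers, 2 were named, Fcer1g, which rose from 3.23 ± 0.471 to 6.40 ± 0.832, and Itgam, at 2.38 ± 0.095 and 2.47 ± 0.0656 (adjusted p = 0.87). Their sum was 5.25 to 6.25 and 7.88 to 9.54, so both were near or below the array medians. No named marker was at 0 in all pools.

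All 11 named mesothelial markers of 18 rose in perigonadal pools (median log2 difference 1.58), with sums of 65.9 to 85.5 in subcutaneous and 394 to 431 in perigonadal pools. They were led by Wt1 (4.18 ± 0.493 against 141 ± 13.5), Rspo1, Upk3b and Nkain4. Wt1 and Rspo1 (perigonadal mean 96.3) made up much of the perigonadal sums, as the other perigonadal means lay between 7.85 and 37.1. Whether these transcripts came from mesothelial cells was not tested. Of 10 Schwann cell markers reported here, the 2 named ones, S100b and Mbp, fell in perigonadal pools (median -1.36, sums of 38.5 to 41.4 and 13.3 to 15.7). Of 6 named pericyte and smooth muscle markers of 12, 4 rose, led by Des and Acta2 (2.54 and 1.49), and 2 fell, Abcc9 and Kcnj8 (-2.07 and -0.92), with sums of 62.3 to 88.0 and 111 to 146. Of 8 named stromal markers of 16, 6 fell and 1 rose (median -0.77, sums of 3693.9 to 3947 and 2095 to 2356), led by Dpp4, Col1a1, Pi16 and Thy1 (-1.53, -1.11, -1.02 and -0.96). Of all named genes 52.3% were called (20.9% higher and 31.4% lower), as names came only from the authors' table of this contrast. Nothing is therefore read from the counts of the marker lists. The part of these cell types in the depot differences of the lipid genes was not tested. The calls of Krt7 (0.58 and 0.46) were lost without pool pair 1 or 2, those of Eng (0.54) and Col3a1 (-0.50) without pair 1, and those of Tagln (0.55 and 0.47) and Pdgfrb (-0.54 and -0.51) without pair 1 or 2, the last also without pair 3 (-0.37). In fits without 1 array, Krt19 was lost in 4, Tagln in 5 and Pdgfrb in 2 of 6.

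**Figure D5:**
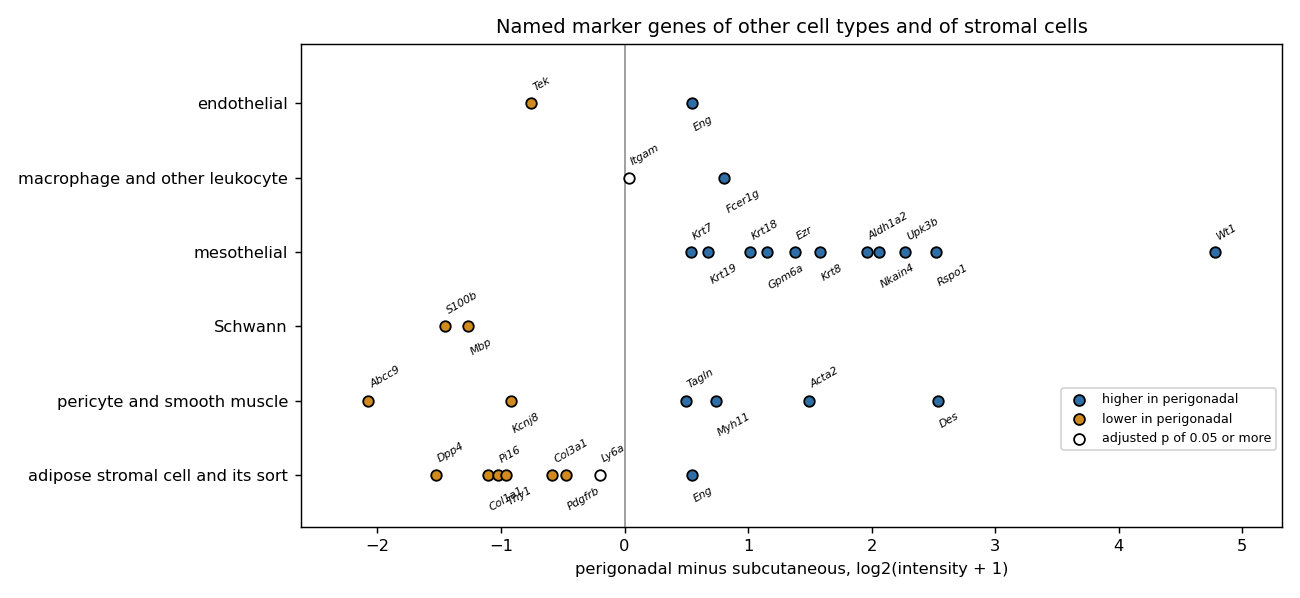
Log2(intensity + 1) difference, perigonadal minus subcutaneous, of the named markers of other cell types and of stromal cells, coloured where limma's adjusted p was below 0.05. All mesothelial markers lie above 0 and both Schwann cell markers below 0, whereas endothelial, pericyte and stromal markers lie on both sides.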

How the data were processed

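Total RNA of sorted stromal cells was labelled with biotin and hybridised to Affymetrix arrays, per the labels. The deposited values are normalized intensity, linear, 1 for each array and probe set (their log2 averages to the authors' log2 means). Partek is named in the submitters' processing notes. Version, background correction and normalization method are not stated there. The authors' comparison table gives, per the file headers, mean log2 intensities and their difference, a ratio, a signed fold score, a t score and the p-value of a paired t-test for 3694 entries.

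Gene names came only from that table. Its entries were named through RefSeq (GRCm38.p6) by accession (3417) or symbol (219), or kept the file's symbol (58). Values existed for 3541 of them, 15.0% of the 23531 probe sets. The table's annotation is shortened, so further genes of a probe set are not known. For a gene with several probe sets the brightest was used.

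Log2(intensity + 1) was fitted with limma 3.58.1 in R 4.3.3 (lmFit, eBayes) over all 23531 probe sets, with pool number as a block because the authors' test was paired, and adjusted by Benjamini-Hochberg (threshold 0.05). Residual degrees of freedom were 2 and the prior added 5.24. A paired t-test with same-numbered pools gave a p within 10% of the authors' for 3435 of 3541 probe sets, against 335 or fewer with pools paired otherwise. Deviations of same-numbered pools correlated at 0.18, 0.13 and 0.066 across probe sets. On simulated data for this comparison (200 of 23531 probe sets changed), 65% of log2 changes of 1 and 95% of changes of 2 were recovered, with 2 false among 162 calls. The simulation took its spread from the subcutaneous pools alone, shuffled it over probe sets and held no pool effect, so real recovery may differ. Precision is limited by the number of arrays.

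The genes and lists were chosen with earlier results of these data known. Named are the 5 genes, up to 6 called and 3 other genes of each lipid list with the largest differences, up to 4 of each marker list (a further few where a call was lost, and Ly6a), all listed genes with a name in the plots, and the 3 nearest profiles per gene. Alternatives left out the block, each pool pair or each array, changed the pseudocount, normalization, filter or moderation, or used the methods' t-test. No lists were tested as sets. A few listed genes are not reported here and were left out of the list counts.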

Additional observations from a re-analysis of the deposited data

How the results depend on the processing

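The signs of the depot differences of the 5 genes were the same under all 16 alternatives. The paired p-value that admitted the genes fixed this for all alternatives but quantile normalization and the fits without 1 array. With a pseudocount of 16 the log2 difference was -1.06 for Cd36, -0.58 for Plin4 and -0.13 for Acaca, and with quantile normalization that of Acaca was -0.18. Over the fits that left out a pool pair or an array, the differences lay between -1.75 and -1.46 for Cd36, -1.58 and -1.27 for Plin4, -0.66 and -0.53 for Scd1, -0.29 and -0.22 for Acaca, and 1.06 and 1.32 for G0s2. Acaca was called under none of the 16 (adjusted p from 0.0544 to 0.36). With no replicate block, 943 probe sets were higher and 1316 lower, 1 and 3 of the 5 genes were called, 10 lipid genes rose and 16 fell, and the log2 differences of the 5 genes were -1.61, -1.44, -0.60, -0.25 and 1.19. With the methods' t-test, 3541 probe sets were below an unadjusted p of 0.05 and 0 passed the Benjamini-Hochberg adjustment, so it called 0 probe sets, 0 of the 5 genes and 0 lipid genes in either direction, where limma called 2238 probe sets. Leaving out pool pairs or arrays gave 529 to 1068 probe sets higher and 660 to 1408 lower, 1 of the 5 genes higher and 2 to 3 lower, and 6 to 10 lipid genes higher and 8 to 15 lower. Without pool pair 1 the numbers were 529 and 660, and without pool pair 2, 716 were lower. With no replicate block the calls of Gpam, Rab18 and Tagln were lost and Dbi passed. With eBayes with trend and robust, Dbi, Cebpd and Ly6a passed, and with only probe sets brighter than the median Hmgcs1 passed. With no pseudocount those of Agpat4, Rab18 and Rxra were lost, and with quantile normalization those of Agpat4, Rxra and Pdgfrb. With a pseudocount of 16 those of Hacd2, Hacd3, Cideb, Acaa1b, Rxrg, Gpm6a, Nkain4 and Pdgfrb were lost, while the lipid genes Dbi, Hacd1, Aup1, Srebf1, Prkaa1, Cebpd and Hmgcs1 passed. The causes were not tested. In fits without 1 array the block was dropped too, so both changes bear on a lost call. Dim values such as those of Plin4 in perigonadal pools limit the size of a fold.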
